A study of Mus musculus with 36 samples.

Results

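The 10 genes described here, Emx2, Nr5a1, Wt1, Pax2, Pax8, Lhx1, Lhx9, Osr1, Gata4 and Kctd14, were taken by name from the 23361 gene names of the series as regulators of the urogenital ridge and mesonephros, and all 10 were found. RNA was measured by poly(A) sequencing in mouse gut, strain C57BL/6J, of embryos of E10.5, E12.5 or E14.5 (embryonic days), in 18 libraries labelled Ret null and 18 labelled wild type. Each stage held 3 female and 3 male libraries of each genotype, which makes 12 groups of 3 libraries and 36 in all. Ret is the receptor that enteric neuron precursors and the ureteric bud use to respond to the growth factor GDNF; the sources used here give neither the allele nor whether embryos were pooled. Nothing in the labels ties a replicate to its own embryo, and the p-values below therefore rest on a spread between libraries that may be technical.

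The urogenital ridge is the strip of intermediate mesoderm that lies along the dorsal body wall behind the gut tube and gives rise to the nephric duct, the kidneys and the gonads, with the adrenal cortex from the neighbouring coelomic epithelium. Pax2, Pax8 and Lhx1 specify the nephric lineage and its duct, Osr1 marks the intermediate and lateral mesoderm before them, and Emx2, Wt1, Lhx9, Gata4 and Nr5a1 are needed for the coelomic epithelium to build the gonad. Wt1, Gata4 and Osr1 are also made by the mesothelium and mesenchyme of the gut and neighbouring organs, so they are not particular to urogenital tissue.

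The labels were checked with Ret and with sex-linked genes before any comparison. Of the 18 libraries labelled Ret null, 7 held Ret RNA at 4.74 to 6.49 FPKM (a level of fragments corrected for transcript length and for sequencing depth), namely the E10.5 females 1, 2 and 3, the E12.5 male 2 and the E14.5 females 1 and 3 and male 1. The other 11 held 0.01 to 0.06 FPKM, and the wild-type libraries held 2.11 to 13.3 FPKM. In 4 libraries Xist and Ddx3y went against the labelled sex, namely the E10.5 female 3 and male 1 labelled Ret null and the E12.5 wild-type females 1 and 2. In 4 pairs, the 2 libraries were about as far apart as sampling noise alone would put them (a ratio of 0.906 to 1.09), so the mean of each pair entered as a single sample: the females 1 and 2 labelled Ret null, the wild-type females 1 and 2 and the wild-type males 3 and 4 at E10.5, and the wild-type females 1 and 2 at E12.5. In 4 of the 6 E10.5 males, male 2 labelled Ret null and all 3 wild-type males, the RNA of Amh stood at 15.4 to 20.2 FPKM. This hormone gene of the fetal testis is known to come on in mouse only after E10.5, so the stage label of these libraries is in doubt, and the E10.5 results are also given without them. Amh can flag only libraries that hold testis RNA, so it could not test the stage of the other E10.5 libraries. Female 3 and male 3 labelled Ret null, which held Ddx3y but not Amh, held 0.023 and 0.052 FPKM of Nr5a1. The results without the Amh libraries therefore do not settle the doubt over stage. All groups are named below as labelled.

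Most of the 10 genes were at a clear level in some libraries and near 0 in others of the same group. Wt1, Osr1 and Gata4 reached 1 FPKM in all 36 libraries, Kctd14 in 29 and Lhx9 in 24. Emx2 and Nr5a1 reached it in 16 libraries each, Pax8 in 13, Pax2 in 10 and Lhx1 in 4. Emx2, Nr5a1, Kctd14, Pax2, Pax8 and Lhx1 were counted together in each library, a subset chosen after the values were seen. At E10.5, 3 or more of these 6 reached 1 FPKM in 4 of 6 libraries labelled Ret null and in 6 of 6 wild-type libraries. At E12.5 that was so in 4 of 6 libraries labelled Ret null and in 0 of 6 wild-type libraries, and at E14.5 in 0 of 6 labelled Ret null and 2 of 6 wild type. At least 3 of the 6 were thus at 1 FPKM in some libraries of 4 of the 6 combinations of stage and genotype.

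**Figure D1:**
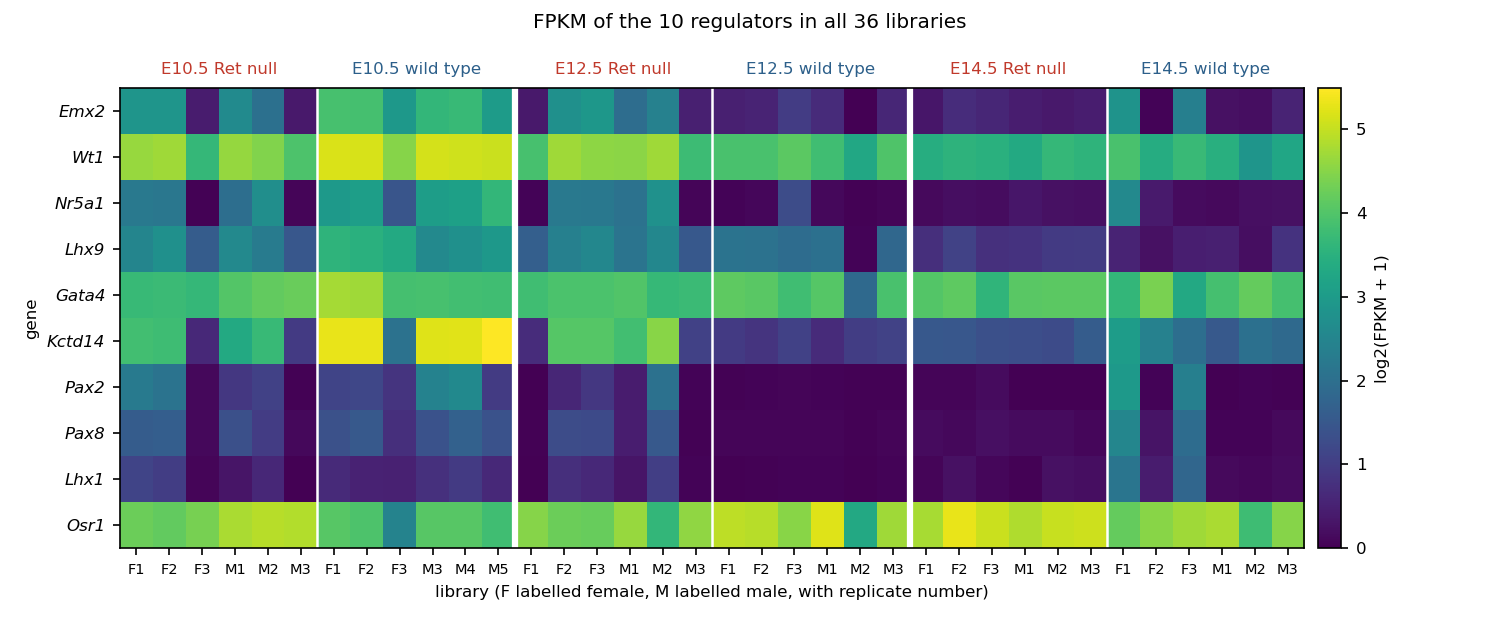
Level of each of the 10 genes (rows) in each of the 36 libraries (columns, F labelled female and M labelled male, Ret null left of wild type within each stage), as log2(FPKM + 1) in colour. Emx2, Nr5a1, Kctd14, Pax2, Pax8 and Lhx1 are dark together in the E10.5 Ret null F3 and M3, the E12.5 Ret null F1 and M3, nearly all E12.5 wild-type libraries and most E14.5 libraries, and the E14.5 wild-type F1 and F3 stand out.

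Every sample at 1 FPKM of Pax8 or Lhx1 was also at 1 FPKM of Emx2, and the 250 bases before the start sites of these 3 genes are shown, from RefSeq on GRCm38.p6. RefSeq promoter entries were matched for 5 of the 10 genes (Emx2, Pax2, Pax8, Lhx1 and Lhx9). Capitals mark the CCAAT box, CCAAT on either strand, a common promoter element.
Emx2, chr19:59458440-59458689, plus strand: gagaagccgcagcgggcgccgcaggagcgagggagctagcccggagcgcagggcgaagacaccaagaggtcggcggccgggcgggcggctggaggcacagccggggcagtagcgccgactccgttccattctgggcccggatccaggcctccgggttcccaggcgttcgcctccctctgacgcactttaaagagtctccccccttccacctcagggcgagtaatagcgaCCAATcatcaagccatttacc
Pax8, chr2:24475600-24475849, minus strand: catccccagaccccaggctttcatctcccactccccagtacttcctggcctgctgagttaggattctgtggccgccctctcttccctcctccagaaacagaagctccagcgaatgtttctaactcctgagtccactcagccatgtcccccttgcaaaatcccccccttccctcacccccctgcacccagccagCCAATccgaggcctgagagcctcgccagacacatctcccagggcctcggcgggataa
Lhx1, chr11:84525535-84525784, minus strand: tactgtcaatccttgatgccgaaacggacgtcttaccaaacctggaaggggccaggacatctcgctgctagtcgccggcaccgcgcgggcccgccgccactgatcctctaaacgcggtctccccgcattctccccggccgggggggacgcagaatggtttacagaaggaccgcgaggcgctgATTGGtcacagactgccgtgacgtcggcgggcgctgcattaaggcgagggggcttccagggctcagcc
The CCAAT box lies 21 bases before the start in Emx2, 57 in Pax8 and 68 in Lhx1, and 24 in Lhx9, while the 3 promoters of Pax2, whose 7 samples at 1 FPKM also hold Emx2, have none. It occurs in 37.4% of the 32817 mouse promoters of the same window, 250 bases before to 50 after the start, and was added to the search after the sequences had been read. The longer letters of the NR5A1 site, TCAAGGTCA, are in 0.424% of all promoters and in none of the 5 genes. Of the other motifs, all searched on both strands, the GATA-type letters AGATAA (11.2% of all promoters) and the box TATAAA (13.6%) are in none of the 5 genes, and TAATTA (a homeodomain core, 5.30%) is in Emx2 alone, 37 bases after the start. These are matches of letters and not tested binding sites.

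Emx2, a homeobox factor needed for the kidney, ureter and gonad to form, varied widely between libraries. At E10.5 the libraries labelled Ret null held 6.24, 6.26 and 0.335 FPKM in females and 5.20, 3.08 and 0.298 FPKM in males, against 13.9, 13.7 and 6.65 FPKM in wild-type females and 11.4, 12.02 and 7.12 FPKM in wild-type males. The highest library labelled Ret null lay below the lowest wild-type library, and the female 3 and male 3 labelled Ret null lay near 0. At E12.5 the order was the other way round. The libraries labelled Ret null held 0.292, 5.78 and 6.55 FPKM in females and 2.87, 4.36 and 0.387 FPKM in males, against 0.006 to 0.959 FPKM in the 6 wild-type libraries. Female 1 and male 3 labelled Ret null fell within the wild-type range and the other 4 lay above it. At E14.5 the libraries labelled Ret null held 0.256 to 0.629 FPKM with a median of 0.357, against 0.044 to 6.07 FPKM with a median of 0.328 in wild type. There wild-type females 1 and 3, at 6.07 and 4.198 FPKM, stood above every other library. Emx2 lies at chr19:59458690-59465357 (mm10), and 264 of its 3002 exon bases overlap the antisense gene Emx2os on the other strand. The sources used here do not say whether counting used strand, so reads of that overlap cannot be told apart.

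Nr5a1, the orphan nuclear receptor SF-1 that drives gonad and adrenal development and steroid synthesis, followed nearly the same libraries. At E10.5 the libraries labelled Ret null held 3.67, 3.50 and 0.023 FPKM in females and 2.94, 5.53 and 0.052 FPKM in males, against 6.80, 7.50 and 1.74 FPKM in wild-type females and 7.32, 7.68 and 11.5 FPKM in wild-type males. The groups overlapped through wild-type female 3. At E12.5 the 4 libraries labelled Ret null that were high in Emx2 held 3.22 to 5.83 FPKM and the other 2 held 0.036 and 0.058 FPKM, against 1.43 FPKM in wild-type female 3 and 0.016 to 0.085 FPKM in the other 5 wild-type libraries. At E14.5 all 6 libraries labelled Ret null lay between 0.0995 and 0.257 FPKM, against 4.98 FPKM in wild-type female 1 and 0.0998 to 0.307 FPKM in the other wild-type libraries. Wild-type female 3 at E14.5, second highest in Emx2, was not high in Nr5a1. Both genes reached 1 FPKM in 12 of the 32 samples, out of 13 samples for each gene alone.

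Kctd14, a member of the potassium channel tetramerisation domain family, had the widest range of the 10 genes. At E10.5 it held 13.2, 12.7 and 0.562 FPKM in females and 9.16, 12.01 and 0.906 FPKM in males labelled Ret null, against 38.7, 38.6 and 3.19 FPKM in wild-type females and 36.4, 37.1 and 44.0 FPKM in wild-type males. Wild-type female 3 was the exception among wild-type libraries, at a level below 4 of the 6 libraries labelled Ret null. At E12.5 it held 0.621, 15.5 and 15.4 FPKM in females and 13.2, 21.7 and 1.098 FPKM in males labelled Ret null, against 0.593 to 1.12 FPKM in wild type. At E14.5 it held 1.37 to 2.01 FPKM with a median of 1.68 in the libraries labelled Ret null, against 1.89 to 7.14 FPKM with a median of 3.01 in wild type. Only wild-type male 1, at 1.89 FPKM, lay within the range of the libraries labelled Ret null.

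Wt1, a zinc finger factor of mesothelium, nephrogenic mesenchyme and gonad, kept a high level in every library and varied less. At E10.5 it averaged 18.9 ± 5.70 FPKM in libraries labelled Ret null and 30.6 ± 6.11 FPKM in wild type (SD, n = 5 and 4 samples). Its lowest libraries labelled Ret null, female 3 at 11.5 FPKM and male 3 at 14.4 FPKM, were the 2 that were near 0 in Emx2. At E12.5 it averaged 20.2 ± 5.57 FPKM in libraries labelled Ret null and 13.4 ± 2.85 FPKM in wild type (SD, n = 6 and 5 samples), with 12.6 and 13.8 FPKM in the Ret null pair near 0 in Emx2 and 22.2 to 25.2 FPKM in the other 4. At E14.5 it averaged 10.3 ± 0.87 FPKM in libraries labelled Ret null and 10.1 ± 2.71 FPKM in wild type (SD, n = 6 samples each), a difference within the spread. Lhx9, a LIM homeobox factor of the gonadal ridge and adjoining mesoderm, averaged 3.59 ± 1.59 FPKM in Ret null and 7.92 ± 2.37 FPKM in wild type at E10.5 (SD, n = 5 and 4 samples), and the samples of the 2 genotypes did not overlap. By library Lhx9 did overlap, with 5.721 FPKM in female 2 labelled Ret null against 5.007 and 5.716 FPKM in wild-type males 3 and 4. At E12.5 it averaged 3.53 ± 1.31 FPKM in Ret null and 2.35 ± 1.32 FPKM in wild type (n = 6 and 5 samples), with 0.03 FPKM in wild-type male 2 against 2.56 to 3.27 FPKM in the other wild-type libraries. At E14.5 it averaged 0.843 ± 0.176 FPKM in Ret null and 0.388 ± 0.211 FPKM in wild type (n = 6 samples each), and was low in every library, also in wild-type females 1 and 3, which were high in Emx2. Gata4, a zinc finger factor of heart, foregut mesoderm and gonad, held between 8.92 and 26.0 FPKM in every library but wild-type male 2 at E12.5, at 2.69 FPKM. Its highest values were those of wild-type females 1 and 2 at E10.5, at 26.0 and 25.3 FPKM, and its genotype means did not differ beyond their spread at any stage.

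Pax2, the paired box factor of nephric duct, ureteric bud and nephron progenitors, was near 0 in most libraries. At E10.5 it held 3.70, 3.25 and 0.088 FPKM in females and 0.848, 1.102 and 0.025 FPKM in males labelled Ret null, against 1.18, 1.23 and 0.780 FPKM in wild-type females and 4.41, 5.06 and 0.929 FPKM in wild-type males. The genotypes overlapped throughout. At E12.5 it held 3.13 FPKM in male 2 labelled Ret null, which also held Ret RNA, 0.333 to 0.841 FPKM in the 3 other libraries labelled Ret null that were high in Emx2, and 0.005 and 0.031 FPKM in the last 2, against 0.021 to 0.049 FPKM in wild type. At E14.5 it held at most 0.111 FPKM in libraries labelled Ret null, against 6.74 and 4.21 FPKM in wild-type females 1 and 3 and at most 0.037 FPKM in the other 4 wild-type libraries. The 3 males labelled Ret null and wild-type male 1 of E14.5 list Pax2 at 0.

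Pax8, its close relative in the nephric lineage, and Lhx1, a LIM homeobox factor needed for the nephric duct to extend, went with Pax2. At E10.5 Pax8 held 0.080 to 2.12 FPKM in libraries labelled Ret null against 0.670 to 2.26 FPKM in wild type, and Lhx1 held 0 to 1.19 FPKM against 0.426 to 0.898 FPKM. At E12.5 Pax8 held 0.015 to 1.89 FPKM in libraries labelled Ret null against 0.018 to 0.054 FPKM in wild type, and Lhx1 held 0.011 to 1.03 FPKM against 0.011 to 0.037 FPKM. Both were highest at that stage in male 2 labelled Ret null. At E14.5 wild-type females 1 and 3 held 4.73 and 2.87 FPKM of Pax8 and 3.41 and 2.54 FPKM of Lhx1, the highest values of the series, while the 6 libraries labelled Ret null held at most 0.161 and 0.188 FPKM. All 4 samples at 1 FPKM of Lhx1 were also at 1 FPKM of Pax2, Pax8 and Emx2. Pax8 lies at chr2:24420560-24475566 (mm10) and shares 367 of its 6061 exon bases with Gm13415 on the other strand, so reads of that stretch cannot be told apart without strand. The other 8 genes shared no run of 75 bases, the read length, with another gene's transcripts.

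Osr1, an odd-skipped zinc finger factor of intermediate and lateral mesoderm, held 4.51 FPKM or more in every library. At E10.5 it held 18.2, 17.0 and 19.6 FPKM in females and 26.8, 29.0 and 27.9 FPKM in males labelled Ret null, against 15.7, 14.6 and 4.51 FPKM in wild-type females and 15.8, 15.7 and 13.1 FPKM in wild-type males. Every library labelled Ret null lay above every wild-type library, including the 2 that were near 0 in Emx2. At E12.5 it averaged 19.2 ± 4.60 FPKM in libraries labelled Ret null and 24.3 ± 10.2 FPKM in wild type (SD, n = 6 and 5 samples), and the groups overlapped. At E14.5 it held 26.2 to 38.4 FPKM with a median of 31.7 in libraries labelled Ret null, against 12.9 to 26.7 FPKM with a median of 21.8 in wild type. Only wild-type male 1, at 26.7 FPKM, lay above the lowest library labelled Ret null.

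**Figure D2:**
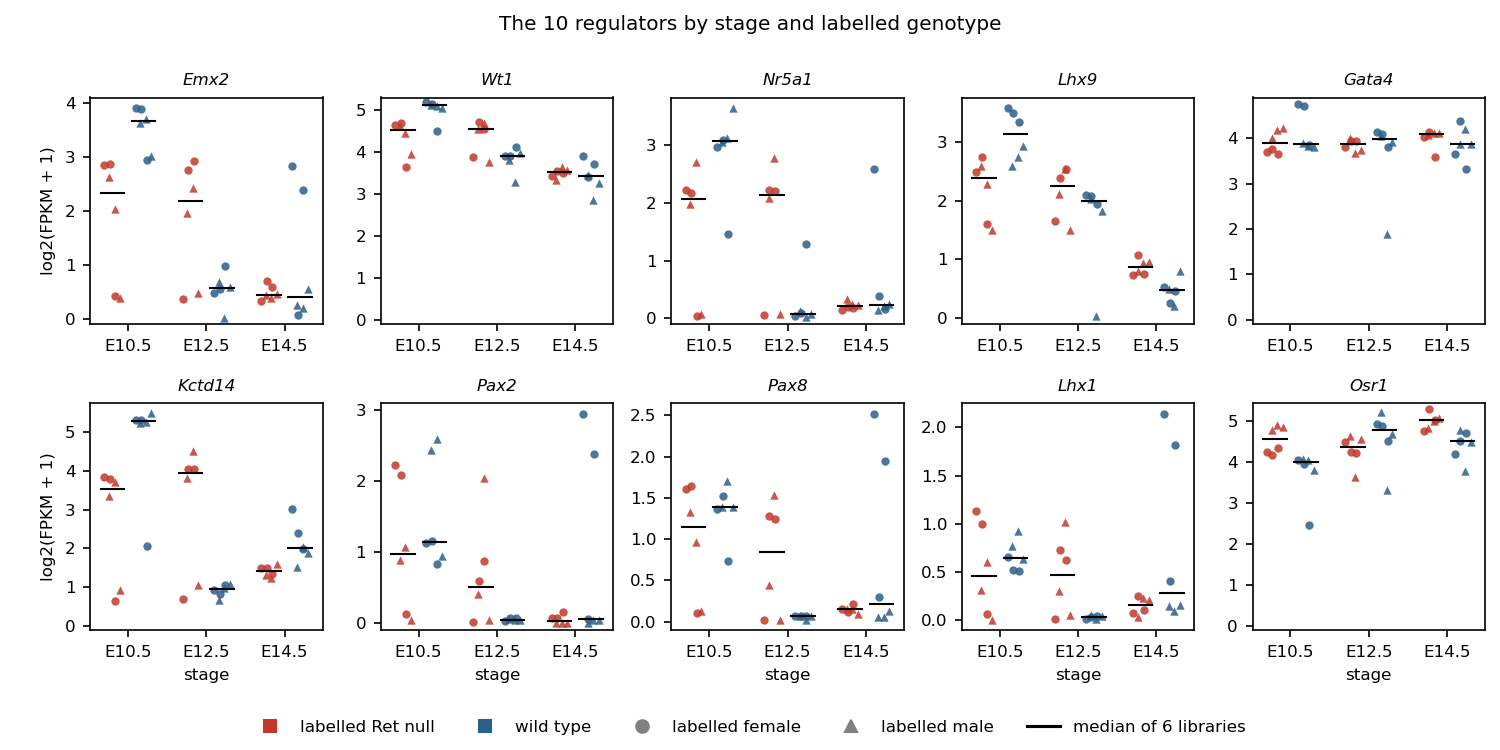
Level of each of the 10 genes as log2(FPKM + 1) by stage, with 1 point per library, Ret null in red left of wild type in blue, circles labelled female, triangles labelled male and the bar at the median of 6 libraries. In Emx2, Nr5a1, Kctd14 and Pax8 the libraries labelled Ret null divide into a high and a low cluster at E10.5 and E12.5, and at E14.5 wild-type females 1 and 3 lie far above the rest in Emx2, Pax2, Pax8 and Lhx1.

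Across stages in wild type, 5 of the 10 genes fell at E12.5 relative to E10.5 and 0 rose. The fit used limma on log2(FPKM + 1) over all 32 samples, with p-values adjusted by Benjamini-Hochberg over the 14321 genes tested, and a gene was called at an adjusted p under 0.05. Kctd14 had 0.929 ± 0.218 FPKM at E12.5 against 30.6 ± 18.6 FPKM at E10.5 (SD, n = 5 and 4 samples), a log2 fold change of -3.58 (SE 0.77, limma adjusted p = 0.00800). Emx2 had 0.501 ± 0.342 FPKM at E12.5 against 9.82 ± 3.51 FPKM at E10.5, at -2.79 on that scale (SE 0.59, adjusted p = 0.00697), and Nr5a1 had 0.327 ± 0.618 against 6.97 ± 4.01 FPKM, at -2.43 (SE 0.61, adjusted p = 0.0231). Lhx9 fell by 1.46 and Wt1 by 1.11 on the log2(FPKM + 1) scale (limma adjusted p = 0.00820 and 0.00547). Over all genes 4.57% were called, 2.75% higher and 1.82% lower, and the median log2 fold change was 0.01 over all genes and -1.27 over the 10.

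The nephric genes did not pass the threshold in that comparison: Pax2 had a log2 fold change of -1.31, Pax8 of -1.22 and Lhx1 of -0.61 (limma adjusted p = 0.127, 0.0687 and 0.207). Gata4 at -0.44 and Osr1 at 0.98 did not pass either (adjusted p = 0.455 and 0.0748). Every wild-type sample at E12.5 lay below every wild-type sample at E10.5 in 8 of the 10 genes, all but Osr1 and Gata4, against 4.05% of all genes, and above it in 0, against 5.14%. Of the 8, Emx2, Pax2 and Pax8 reached 1 FPKM in 0 of 6 wild-type libraries at E12.5. Lhx1 did so in 0 of 6 at either stage and passed the filter only through other groups. The 8 genes also vary together over the same samples, so they are not 8 separate results. The stomach marker Barx1 went the other way in most libraries, with 0.229 to 164 FPKM in wild type at E12.5 against 0.651 to 38.3 FPKM at E10.5, and its part in the result was not tested. In bulk tissue fewer cells of a type and less RNA per cell cannot be told apart. Without the E12.5 wild-type females 1 and 2 and the 2 other libraries whose sex genes went against the label, the Nr5a1 call was lost (limma adjusted p = 0.121) and the other 4 calls held. It was also lost without the E10.5 wild-type females 1 and 2, males 3 and 4 or male 5, or without the E12.5 wild-type females 1 and 2 alone (limma adjusted p = 0.0963, 0.0566, 0.0927 and 0.123). Without the E10.5 libraries that held Amh RNA, an alternative chosen after seeing the data that compares libraries labelled female alone, all 5 calls were lost. There the log2 fold changes were -2.71 for Kctd14, -2.67 for Emx2, -1.56 for Nr5a1, -1.42 for Lhx9 and -0.82 for Wt1 (limma adjusted p = 0.295, 0.157, 0.485, 0.159 and 0.291).

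At E14.5 relative to E12.5 in wild type, Lhx1 rose by 0.76 (SE 0.24, limma adjusted p = 0.00834) and Lhx9 fell by 1.2 (SE 0.29, adjusted p = 0.000989) on the log2(FPKM + 1) scale. That stage pair had 58.9% of all genes called, 31% higher and 27.9% lower, so 2 calls among 10 genes lie below the background. The Lhx1 means were 1.1 ± 1.5 FPKM at E14.5 and 0.026 ± 0.010 FPKM at E12.5 (SD, n = 6 and 5 samples), and females 1 and 3 held most of the E14.5 level. These were the only wild-type samples at 1 FPKM of Lhx1, which passed the filter through 2 samples labelled Ret null, so it was under the filter and not tested in the fit on wild type alone or without the libraries labelled Ret null that held Ret RNA. Lhx1 and Kctd14 were higher in every E14.5 than in every E12.5 wild-type sample, against 20.1% of all genes, and 0 of the 10 were lower in every one, against 17.2%.

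Between genotypes at E10.5, 0 of the 9 genes tested passed the threshold, against 8.29% of all 13165 genes tested (5.61% higher and 2.67% lower), and Lhx1 was under the filter of 1 FPKM in 3 samples. By limma 4 of the 9, and 3713 of all 13165 genes, had an unadjusted p under 0.05. Lhx9 came nearest with a log2 fold change of -0.995 (SE 0.27, limma adjusted p = 0.0572), then Osr1 at 0.98 (SE 0.27, adjusted p = 0.0614) and Wt1 at -0.71 (SE 0.24, adjusted p = 0.101). Kctd14 had the widest fold change at -2.09 (SE 0.91, adjusted p = 0.180), with Emx2 at -1.72 (SE 0.60, adjusted p = 0.111) and Nr5a1 at -1.45 (SE 0.65, adjusted p = 0.186). Emx2 and Lhx9 were lower in every sample labelled Ret null than in every wild-type sample, as were 3.54% of all genes, and Osr1 was higher in every one, as were 5.29%. The Lhx9 libraries overlapped before pairs were averaged. Other settings called some of the 9. The fit over all 3 stages called Lhx9, Osr1 and Wt1 (limma adjusted p = 0.0490, 0.0485 and 0.0492) and 1334 of all 14321 genes. Quantile normalization called Lhx9 (limma adjusted p = 0.0423) and 1152 of all 13165 genes. Counting every library called Lhx9, Osr1, Wt1 and Emx2 (limma adjusted p = 0.00964, 0.0206, 0.0229 and 0.0251). That setting enters the averaged pairs as separate samples, and it called 3774 of all 13342 genes. With the replicate number as a block as well, Lhx9, Wt1, Emx2, Nr5a1 and Kctd14 passed, all lower in Ret null (limma adjusted p = 0.0172, 0.00331, 0.00495, 0.00295 and 0.000375). There 939 of all 13342 genes were called. Without females 1 and 2 labelled Ret null, Lhx9 and Wt1 passed (limma adjusted p = 0.0379 and 0.0448), as did 601 of all 13093 genes. Osr1 passed without wild-type females 1 and 2 or without wild-type female 3 (limma adjusted p = 0.000651 and 0.0132), and Gata4 without wild-type female 3 (0.0318). Over all genes, 992 of 13101 and 802 of 13103 were called there, in that order. Without the libraries that held Amh RNA, 0 of 8 genes tested passed, where 89 of all 12811 genes did. Lhx9 was at -1.32 and Osr1 at 1.05 (limma adjusted p = 0.166 and 0.240). No wild-type male was left there, so that fit compared libraries labelled female alone, and it does not settle their stage. Female 3 labelled Ret null, which is among them, went against its labelled sex. All 3 females labelled Ret null held Ret RNA, so that contrast held no library without Ret RNA. Without these 3 females the fit compared males alone, and 0.522% of all genes were called. There Emx2 was at -1.66, Lhx9 at -0.67 and Osr1 at 0.91 (limma adjusted p = 0.214, 0.256 and 0.244). All 3 wild-type males held Amh RNA, and male 1 labelled Ret null went against its labelled sex. Genotype thus cannot be told apart there from the doubts over stage and sex.

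At E12.5, 0 of the 8 genes tested passed between genotypes, where 0.00759% of all 13182 genes did, and Pax2 and Lhx1 were under the filter. By limma 4 of the 8, and 1115 of all genes, had an unadjusted p under 0.05. Emx2 and Pax8 reached 1 FPKM in 0 of 6 wild-type libraries and so passed the filter through samples labelled Ret null alone. Kctd14 and Nr5a1 reached it in 2 and 1 of 6 wild-type libraries. The direction of these genes is thus not independent of the filter. The log2 fold changes were 2.08 for Kctd14 (SE 0.75, limma adjusted p = 0.564), 1.23 for Emx2 (SE 0.51, adjusted p = 0.585) and 1.19 for Nr5a1 (SE 0.55, adjusted p = 0.592). Here the 4 high libraries labelled Ret null stood against 2 low ones, and the differences did not pass after adjustment over all genes. The Kctd14 means differed by 10.3 FPKM, against an SD of 8.53 FPKM in samples labelled Ret null. The Emx2 means differed by 2.87 FPKM (SD 2.66 in Ret null) and the Nr5a1 means by 2.41 FPKM (SD 2.27). The genotypes overlapped in all 10 genes, where 0.618% of all genes were higher and 0.396% lower in every sample labelled Ret null. Male 2 labelled Ret null held Ret RNA. Without it Kctd14, Emx2 and Nr5a1 had log2 fold changes of 1.74, 1.03 and 0.91 (limma adjusted p = 0.629, 0.629 and 0.641). In that fit 0.259% of all genes were called.

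At E14.5 the 4 genes tested were Wt1, Osr1, Gata4 and Kctd14, and the other 6 were under the filter. Osr1 rose by 0.58 (SE 0.16, limma adjusted p = 0.0365) and Kctd14 fell by 0.72 (SE 0.16, adjusted p = 0.0195) on the log2(FPKM + 1) scale, where 15.7% of all genes were called, 10.9% higher and 4.84% lower. The genotypes overlapped in all 10 genes, where 4.66% of all genes were higher and 1.49% lower in every sample labelled Ret null. Wt1 at 0.07 and Gata4 at 0.13 did not pass (limma adjusted p = 0.706 and 0.605). Both calls were lost without the 3 libraries labelled Ret null that held Ret RNA, with log2 fold changes of 0.75 for Osr1 and -0.68 for Kctd14 (limma adjusted p = 0.0677 and 0.103), when 8.61% of all genes were called. Both were also lost in a fit over all 3 stages (limma adjusted p = 0.0938 for Osr1 and 0.415 for Kctd14). That of Osr1 was lost with no filter on low values and with the replicate number as a block (limma adjusted p = 0.0577 and 0.0633). The Kctd14 call was also lost without male 2 labelled Ret null (limma adjusted p = 0.0518), and that of Osr1 without any 1 of 8 libraries, females 1 and 2 and males 1, 2 and 3 labelled Ret null and wild-type females 1 and 2 and male 3 (limma adjusted p = 0.0521 to 0.0865). Wild-type male 2 of this stage held 304 FPKM of the heart gene Nppa, against at most 0.517 FPKM in the other 11 libraries, and its part in these results was not tested.

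The genotype difference itself changed between stages for some of the genes. Between E12.5 and E10.5 it moved up by 4.17 for Kctd14 (SE 1.04, limma adjusted p = 0.0433) and by 1.22 for Wt1 (SE 0.30, adjusted p = 0.0437), where 1.34% of all genes were called, 0.545% upward and 0.796% downward. Emx2 at 2.95 and Lhx9 at 1.46 did not pass (limma adjusted p = 0.0676 and 0.0896). Between E14.5 and E12.5 it changed by -2.81 for Kctd14, -1.38 for Pax8 and -1.07 for Lhx1 (SE 0.96, 0.47 and 0.33, limma adjusted p = 0.0465, 0.0468 and 0.0283), where 17.4% of all genes were called, 11.2% upward and 6.19% downward. These tests share the E12.5 libraries with each other and with the comparisons above. Without the libraries labelled Ret null that held Ret RNA, 4 of the 5 calls were lost and Lhx1 fell under the filter. Between E12.5 and E10.5 that fit compared males alone. Without the E10.5 libraries that held Amh RNA it compared libraries labelled female alone, and the E12.5 against E10.5 calls of Kctd14 and Wt1 were lost as well (limma adjusted p = 0.395 and 0.383). Leaving out 1 sample at a time, the E12.5 against E10.5 calls of Kctd14 and Wt1 were lost for 15 and 14 of 20 samples (limma adjusted p up to 0.155 and 0.157). The E14.5 against E12.5 calls of Kctd14, Pax8 and Lhx1 were lost for 19, 19 and 5 of 23 samples (limma adjusted p up to 0.0955, 0.0928 and 0.060).

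**Figure D3:**
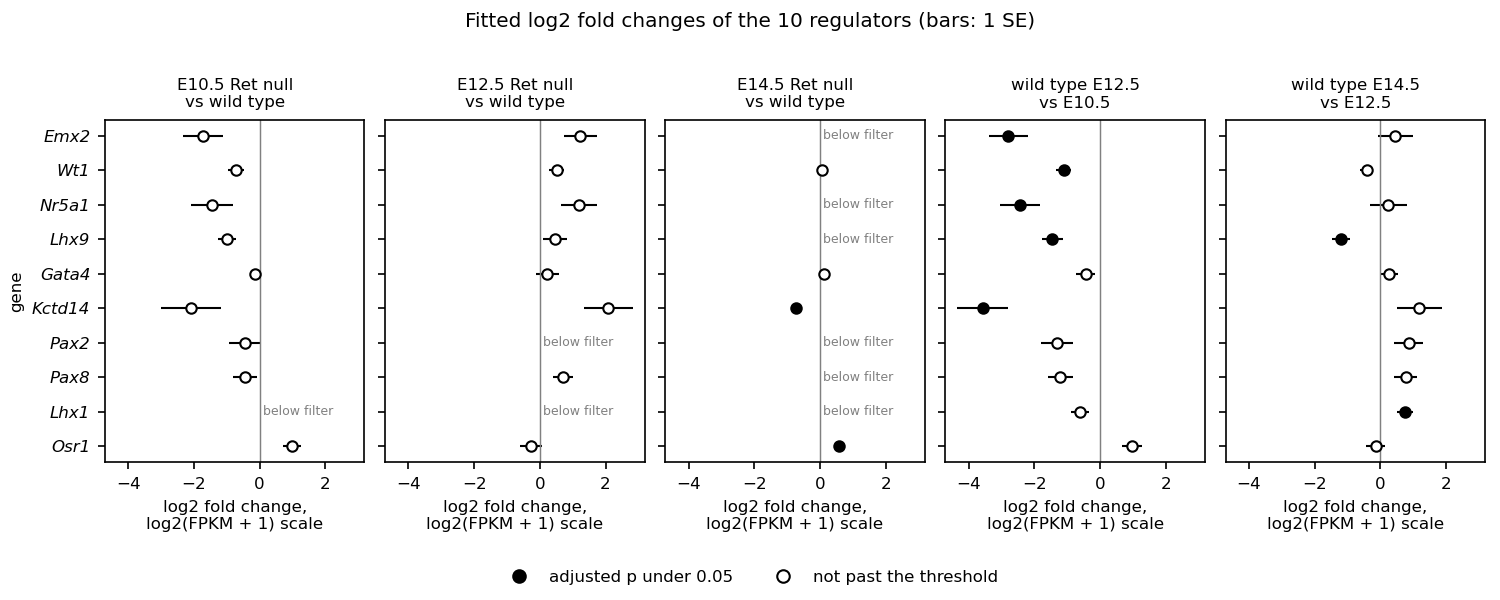
Fitted log2 fold change on the log2(FPKM + 1) scale (points, with bars of 1 SE) of each of the 10 genes in 5 comparisons, filled where the limma adjusted p was under 0.05 over all genes. Emx2, Wt1, Nr5a1, Lhx9 and Kctd14 are filled and below 0 in wild type at E12.5 against E10.5, while between genotypes Kctd14 and Osr1 at E14.5 are the filled points.

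The 18 gonad genes listed summed to 171 to 228 FPKM in libraries labelled Ret null and 99.9 to 229 FPKM in wild type at E10.5, and female 3 and male 3 labelled Ret null, near 0 in Emx2, held 197 and 208 FPKM of them. The sum includes Tcf21, at 1 FPKM or more in all 36 libraries and at up to 127 FPKM, so it does not measure gonad RNA alone. From 7 to 15 of the 18 genes reached 1 FPKM in libraries labelled Ret null at E10.5, and 10 to 15 in wild type. Amh, the anti-Müllerian hormone of Sertoli cells in the fetal testis, held 15.4 FPKM in male 2 labelled Ret null at E10.5, against 20.2, 18.1 and 19.7 FPKM in the 3 wild-type males. At E12.5 it held 10.9 and 12.45 FPKM in males 1 and 2 labelled Ret null, against 0.280 to 0.413 FPKM in wild type. Amh reached 1 FPKM in these 6 libraries of 36, all labelled male, and stayed at or below 0.596 FPKM in the other 30. Foxl2, a factor of the fetal ovary, reached 0.620 FPKM at most and is listed at 0 in 13 libraries. Amhr2, the receptor of Amh, held 0.317 to 3.17 FPKM in libraries labelled Ret null at E10.5 against 1.43 to 6.70 FPKM in wild type, and 0.249 to 5.42 FPKM at E12.5 against 0.195 to 0.370 FPKM.

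Of the 18 gonad genes listed, 16 were tested across stages in wild type, and 5 fell and 1 rose at E12.5 relative to E10.5, where 1.82% of all genes fell and 2.75% rose. Wnt6 fell by 2.51, Amhr2 by 2.02, Ptgds by 1.43 and Inhbb by 1.22 (limma adjusted p = 0.00502, 0.0120, 0.0485 and 0.00547), and Tcf21, which gut mesenchyme also makes, rose by 0.86 (adjusted p = 0.00616). The median was -0.55 over the list and 0.01 over all genes. Between genotypes at E10.5, 1 of 15 gonad genes tested was called, Tcf21 at 0.97 (limma adjusted p = 0.0423), where 8.29% of all genes were. Without the libraries labelled Ret null that held Ret RNA, which left males alone to compare, 0 of 15 were called, where 0.522% of all genes were.

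Germ cell and steroidogenic genes were found as well. Pou5f1, a pluripotency factor kept by primordial germ cells, held 5.48, 5.18, 3.01 and 3.52 FPKM in females 1 and 2 and males 1 and 2 labelled Ret null at E10.5 and at most 0.106 FPKM in the other 2, against 0.720 to 3.60 FPKM in wild type. At E12.5 it held 1.74 to 4.68 FPKM in the 4 libraries labelled Ret null that were high in Emx2 and at most 0.060 FPKM in the other 2, against at most 0.096 FPKM in wild type. At E14.5 all 6 libraries labelled Ret null list it at 0. Of the 10 germ cell genes, 7 were tested in wild type and 0 were called at E12.5 relative to E10.5, where 4.57% of all genes were.

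Cyp11a1, Hsd3b1, Cyp21a1 and Star were highest in 1 wild-type library of E14.5. Cyp17a1, of the same list, was not. It reached 1 FPKM in 1 of 36 libraries, labelled male, at 1.16 FPKM, and stayed at or below 0.490 FPKM elsewhere. At E14.5 wild-type female 1 held 35.1 FPKM of Cyp11a1, the side chain cleavage enzyme that starts steroid synthesis, 33.8 FPKM of Hsd3b1, 33.5 FPKM of the adrenal enzyme gene Cyp21a1 and 17.9 FPKM of Star. The other 5 wild-type libraries held 1.12 to 1.81 FPKM of Cyp11a1 and at most 0.122 FPKM of Cyp21a1. That library was also the only one of E14.5 with Nr5a1 above 1 FPKM, and its Barx1 level was 0.086 FPKM against 11.9 to 26.6 FPKM in the other 5. The 8 liver genes listed, all at 1 FPKM or more there, summed to 2971 FPKM in it, against 63.2 to 253 FPKM in the other 5, and their part in these levels was not tested. At E12.5 wild-type female 3, the only wild-type library of that stage with Nr5a1 above 1 FPKM, held 2.35 FPKM of Cyp11a1 against 0.056 to 0.225 FPKM in the other 5. Of the 11 adrenal and steroidogenic genes, 0 of 10 tested were called in wild type at E12.5 relative to E10.5, where 4.57% of all genes were. At E14.5 relative to E12.5, 3 rose and 0 fell, where 31% of all genes rose and 27.9% fell.

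Genes of the nephric duct and kidney also varied by library. Cdh16, a cadherin of kidney epithelium, held 0.134 to 3.81 FPKM in libraries labelled Ret null at E10.5 against 1.78 to 5.87 FPKM in wild type, and 0.312 to 2.85 FPKM at E12.5 against 0.105 to 0.638 FPKM. At E14.5 it held 0.292 to 0.757 FPKM in libraries labelled Ret null, against 13.3 and 8.44 FPKM in wild-type females 1 and 3, 7.19 FPKM in wild-type male 2 and at most 0.428 FPKM in the other 3. Calb1, a calcium-binding protein of the ureteric bud, held 7.48 and 5.13 FPKM in the same 2 females and at most 0.609 FPKM in the other 10 libraries of E14.5. Umod, of the thick ascending limb, reached 0.063 FPKM at most in any library and is listed at 0 in 28.

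In wild type at E12.5 relative to E10.5, 14 of 15 nephric duct genes were tested, of which Calb1 fell by 1.69 and Wnt9b by 1.13 (limma adjusted p = 0.0331 and 0.00132) and Gfra1, which enteric neuron precursors also make, rose by 1.95 (adjusted p = 0.000199). Of 15 kidney mesenchyme genes 14 were tested, of which Wnt4 fell by 1.53 and Meox1 by 1.25 (adjusted p = 0.0225 and 0.0474) and Gdnf and Tmem100 rose by 0.81 and 0.34 (adjusted p = 0.0169 and 0.0495). Foxd1, a factor of kidney stroma, held 0.027 to 10.7 FPKM in libraries labelled Ret null at E10.5 against 1.54 to 10.99 FPKM in wild type, and 0.031 to 10.1 FPKM at E12.5 against 0.063 to 4.30 FPKM. The list medians were -0.06 for the duct and -0.55 for the mesenchyme in wild type at E12.5 relative to E10.5, where 1.82% of all genes fell and 2.75% rose. Of 12 kidney tubule and podocyte genes 6 were tested, of which 1 fell at E12.5 relative to E10.5, against 1.82% of all genes, and 6 rose at E14.5 relative to E12.5, against 31%.

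**Figure D4:**
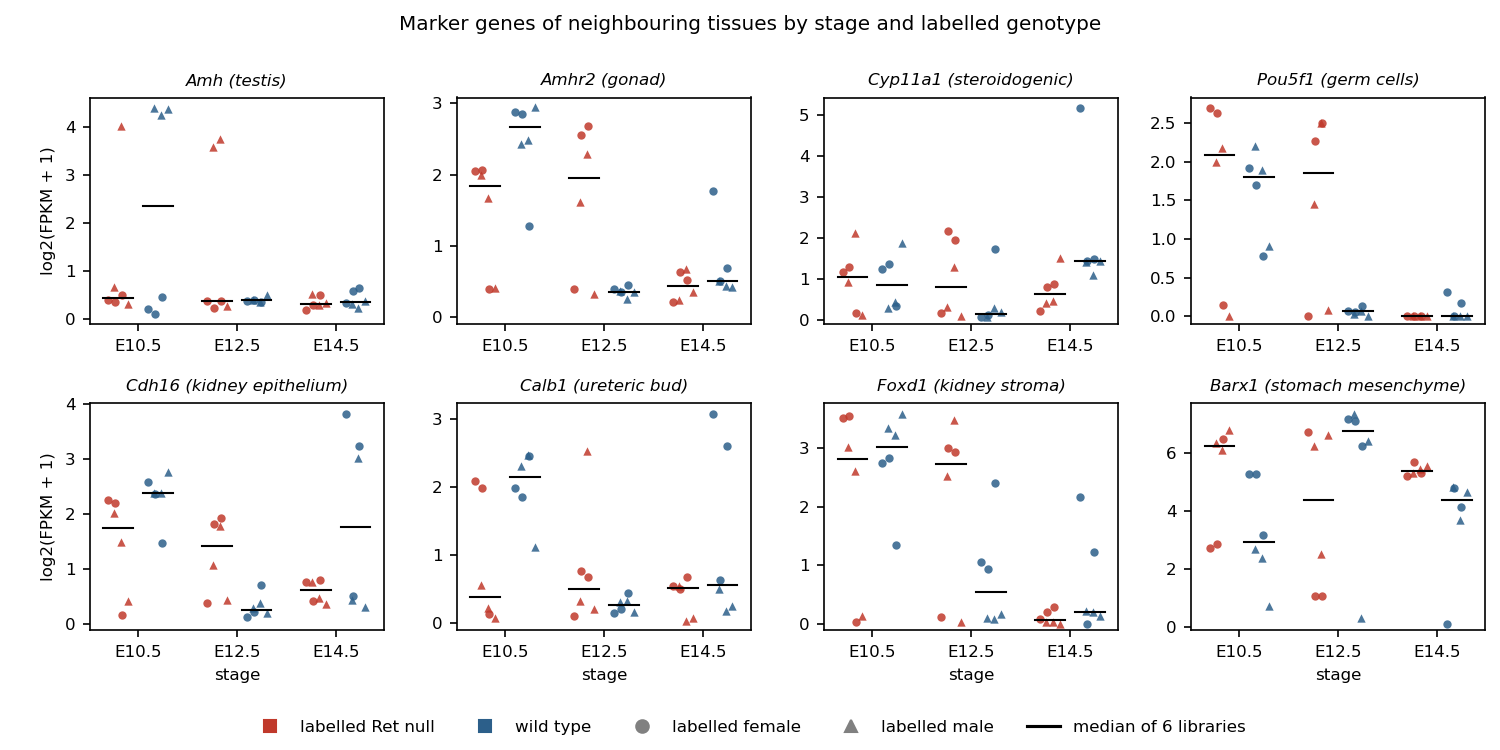
Level of 8 marker genes of neighbouring tissues as log2(FPKM + 1) by stage, with 1 point per library, Ret null in red left of wild type in blue, circles labelled female, triangles labelled male and the bar at the median of 6 libraries. Amh is high in 6 libraries, all labelled male, Cyp11a1 in wild-type female 1 of E14.5, and Barx1 is low in several libraries that are high in the gonad and kidney genes.

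Markers of the neighbouring stomach varied beside them. At E10.5 Barx1 held 5.70, 6.35 and 88.7 FPKM in females and 80.9, 68.7 and 110 FPKM in males labelled Ret null, against 38.3, 38.3 and 8.10 FPKM in wild-type females and 5.52, 4.29 and 0.651 FPKM in wild-type males. Males 1 and 2 labelled Ret null held both Barx1 and Emx2, so a low Barx1 level did not go with a high Emx2 level in every library. Of the 7 stomach and spleen genes, all tested, 3 rose and 0 fell in Ret null relative to wild type at E10.5, against 5.61% and 2.67% of all genes, and 1 rose in wild type at E12.5 relative to E10.5, against 2.75%. The mesothelial list was summed over 11 of its 12 genes and reached 252 to 336 FPKM in libraries labelled Ret null against 204 to 349 FPKM in wild type at E10.5, 231 to 350 against 254 to 328 FPKM at E12.5, and 354 to 451 against 349 to 564 FPKM at E14.5. Its ranges overlapped at every stage, and its part in the results was not tested.

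The genes most like each of the 10 were found by Pearson's r of log2(FPKM + 1) centred on the stage mean, over 32 samples and 14397 genes, as a description. Samples share dissections and depth, so r carries no test. Emx2 was most like E330013P04Rik (r = 0.945), its antisense partner Emx2os (0.937) and Wnt9b (0.937), Nr5a1 like Akr1cl (0.972), Mc2r (0.933) and Amhr2 (0.926), and Kctd14 like Amhr2 (0.948) and Dppa5a (0.930). Pax2 was most like Uncx (0.963), Calb1 (0.893) and 4930426D05Rik (0.876), Pax8 like 4930426D05Rik (0.950), Tfcp2l1 (0.892) and Rsad2 (0.869), and Lhx1 like Uncx (0.889), Clec18a (0.885) and 4930426D05Rik (0.884). Wt1 was most like Wnt4 (0.923), Shisa3 (0.906) and E330013P04Rik (0.889), and Lhx9 like Adamts1 (0.852), Asb4 (0.845) and Shisa3 (0.844). Osr1 was most like Parp8 (0.877), Zcchc5 (0.874) and Ptchd1 (0.872), and Gata4 like Tpm1 (0.787), Grk5 (0.741) and Igf1 (0.736).

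**Figure D5:**
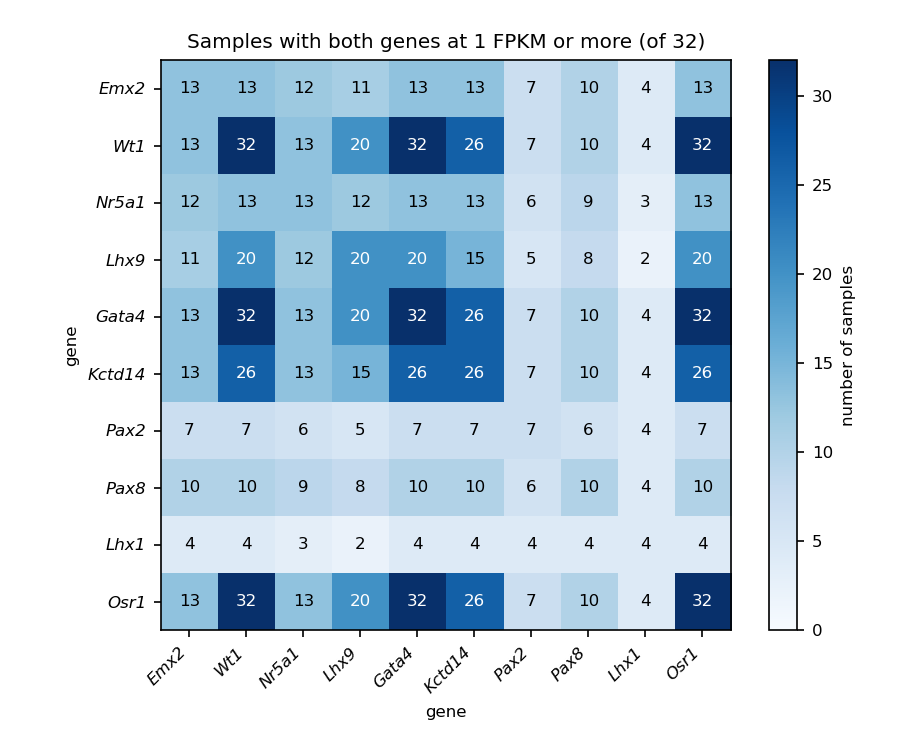
Number of the 32 samples in which both genes of a pair reached 1 FPKM, with each gene's own number on the diagonal. Emx2 and Nr5a1 share 12 samples out of 13 for each, the 7 samples of Pax2 and the 10 of Pax8 all hold Emx2, and Lhx1 reaches 1 FPKM in 4 samples, all with Pax2 and Pax8.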

How the data were processed

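Poly(A) RNA of dissected mouse gut was sequenced as paired 75-base reads. Each deposited file lists, for 1 library, the FPKM of every gene and the bounds of an interval that the authors computed. The submitters' processing notes name mm10 as the build and the tools Cufflinks, Cuffdiff, TopHat2 and Picard, while the sources used here give no version, setting or order. FPKM were used as deposited, entries that share a gene name were kept apart, and start positions were counted from 1. The width of the authors' intervals gives an estimated depth of 17480000 to 41040000 fragments per library at E12.5 and 4880000 to 17780000 at the other stages, so low values are less exact at E10.5 and E14.5.

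Of 36 replicate pairs, 4 had a spread over noise under 1.1 and under 1% of genes beyond 3 SD, and each was averaged, which left 32 samples. log2(FPKM + 1) was fitted with limma 3.58.1 in R 4.3.3 (empirical Bayes with a trend) on genotype by sex means within a stage, and on 12 group means for stage comparisons and interactions, over genes that reached 1 FPKM in 3 or more samples, with Benjamini-Hochberg adjustment over all of them. Fits were tested on simulated data. Because a pseudocount of 1 is added, fold changes of low genes are understated. Alternatives were a pseudocount of 0.1, no filter, quantile normalization, every library counted, the replicate number as a block, other sample sets for the fit, leaving out libraries whose Ret or sex genes go against the label, and leaving out each sample. Leaving out E10.5 libraries with Amh at 1 FPKM or more was added after seeing the data. Named were all 10 genes, Ret, Xist, Ddx3y, the 3 most alike genes of each, and up to 4 called genes of each list, apart from items that are not reported here. Other list genes, chosen after their values were seen, were named for their levels. The 10 genes and the lists of neighbouring tissues were chosen with earlier results of these data known. Sequences are from RefSeq.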

Additional observations from a re-analysis of the deposited data

Results flagged for a closer look

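In 5 cases the difference between Ret null and wild type changed with the stage by a test of that change itself, fitted with limma on log2(FPKM + 1). For Kctd14 and Wt1 the difference at E12.5 minus that at E10.5 was 4.17 and 1.22 (limma adjusted p = 0.0433 and 0.0437). For Kctd14, Pax8 and Lhx1 the difference at E14.5 minus that at E12.5 was -2.81, -1.38 and -1.07 (limma adjusted p = 0.0465, 0.0468 and 0.0283). The Kctd14 means behind them were 7.12 ± 5.99 FPKM in Ret null and 30.6 ± 18.6 FPKM in wild type at E10.5, 11.2 ± 8.53 FPKM in Ret null and 0.929 ± 0.218 FPKM in wild type at E12.5, and 1.68 ± 0.247 FPKM in Ret null and 3.67 ± 1.87 FPKM in wild type at E14.5 (SD, n = 5 and 4, 6 and 5, and 6 samples each). The Kctd14 and Wt1 values at E12.5 against E10.5 missed the threshold in 20 and 18 of 28 alternatives. Their limma adjusted p went up to 0.588 for both without the libraries labelled Ret null that held Ret RNA, where males alone were compared. Those of Kctd14 and Pax8 at E14.5 against E12.5 missed it in 22 of 30 alternatives each, with adjusted p up to 0.124 and 0.113, and that of Lhx1 in 6 of 29, with adjusted p up to 0.060.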

How the results depend on the processing

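Over the 61 results of single genes, 1333 alternative values were computed, of which 1146 kept both direction and side of the threshold, 113 no longer passed, 54 newly passed and 20 changed sign. At E10.5 the number of all genes called between genotypes was 1091 and became 625 with no filter and 3774 with every library counted. It became 68 without the libraries labelled Ret null that held Ret RNA, which compares males alone, and 184 without those whose sex genes went against the label. At E12.5 the 1 call became 0 with every library counted, 0 with the replicate block, 34 without the library with Ret RNA, 2 without the sex-mismatched libraries and 2 fitted over all stages. At E14.5 the 2175 calls became 1182 without the libraries with Ret RNA, 1122 with the replicate block and 4554 fitted over all stages. In wild type E12.5 against E10.5 the 654 calls became 1829 with every library counted, 264 without the sex-mismatched libraries and 386 fitted on wild type alone. The 192 changes of the genotype difference between E10.5 and E12.5 became 769, 1 and 5 with every library counted, without the libraries with Ret RNA and without the sex-mismatched ones, and the 2489 between E12.5 and E14.5 became 1473 without the sex-mismatched ones. Leaving out each sample gave 179 to 1268, 0 to 34 and 669 to 3554 calls between genotypes at the 3 stages in order, 298 to 735 in wild type E12.5 against E10.5, and 51 to 417 and 1342 to 3563 for the changes of the genotype difference. Without the E10.5 libraries that held Amh RNA, chosen after seeing the data, 89 genes were called between genotypes at E10.5, 227 in wild type E12.5 against E10.5, and 46 for the change of the genotype difference between these stages. These 3 fits compared libraries labelled female alone, some of which went against that label. Quantile normalization gave 3451 higher and 5512 lower in wild type E14.5 against E12.5, where 4439 and 3992 were found without it. Signs changed for Gata4 between genotypes at E10.5 without the libraries with Ret RNA (0.31), for Nr5a1 in wild type E14.5 against E12.5 without the sex-mismatched libraries (-0.0546), and for the change of the Lhx9 genotype difference from E12.5 to E14.5 with a pseudocount of 0.1 (0.13), quantile normalization (0.061) and without the libraries with Ret RNA (0.21). Leaving out 1 sample, the log2 values that changed sign ranged between genotypes from -0.37 to 0.068 for Gata4 and -0.97 to 0.052 for Pax2 at E10.5, -0.12 to 0.42 for Gata4 at E12.5 and -0.018 to 0.13 for Wt1 at E14.5. In wild type E14.5 against E12.5 they ranged from -0.14 to 0.55 for Nr5a1, -0.42 to 0.059 for Osr1 and -0.089 to 0.45 for Gata4, and for the change of the genotype difference from -0.23 to 0.27 for Lhx9 and -0.30 to 0.25 for Gata4. The cause of these changes was not tested. Replicate numbers paired the samples in part at most: of 48 pairs of the same number, 14 had a correlation of deviations over 0.1, within -0.319 to 0.365. At E12.5 that held for 7 of 18 pairs, within -0.319 to 0.331. Among them were female 1 labelled Ret null with wild-type female 1 (0.331) and with wild-type male 1 (0.240). At E10.5 the pairs across genotypes were at 0.0128 to 0.0687, while the 3 between females and males labelled Ret null were at 0.195, 0.158 and 0.365. With the replicate number as a block and every library counted, Emx2, Nr5a1, Wt1, Lhx9 and Kctd14 passed the threshold at E10.5, all lower in Ret null, with 939 calls over all genes. In wild type E12.5 against E10.5 801 genes passed, while the Osr1 call at E14.5 was lost (limma adjusted p = 0.0633). The depth at E10.5 and E14.5 limits what values under 1 FPKM can show.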
